A study of Mus musculus with 48 samples.

Results

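Mitochondrial ribosomal proteins are the nuclear-encoded proteins of the ribosome inside mitochondria, and 76 genes for them were read in mouse liver, of 18194 genes on the array. Members were all genes whose probe set carried a single symbol beginning with Mrpl or Mrps followed by a number. Each gene was represented by its probe set of highest mean, and the 76 genes had 156 of the 45101 probe sets. The symbols divide into 47 Mrpl and 29 Mrps genes. By what is known of the proteins, 49 belong to the large subunit, among them Mrps18a and Mrps30 in spite of their names, and 26 to the small subunit. The remaining one, Mrps36, was later found to be a component of the 2-oxoglutarate dehydrogenase complex. Mrpl30 and Mrpl53 were listed only on probe sets shared with a neighbouring or related gene and are no members.

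The livers came from male C57BL/6J mice, 6 weeks old by the study's methods, that had been entrained to equal periods of light and dark and then released into constant darkness. All pools shared this genotype, sex and regime, without treatment or mutation. RNA of several mice was pooled for each of 48 successive hours, beginning at CT18 and ending at CT65, and 1 Affymetrix mouse array was hybridised per pool. Circadian time (CT) counts from subjective dawn, with dusk 12 h later. The first 24 pools are called the first cycle and the others, from CT42 on, the second, and no hour of a cycle had a replicate, so that errors and p-values rest on the spread between pools, which mixes animals and arrays.

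The mitochondrial ribosome translates the few messages encoded by mitochondrial DNA, all of them for subunits of the respiratory chain and the ATP synthase. Its RNAs are made in the organelle, whereas every protein is encoded in the nucleus, made in the cytosol and imported. Many of the proteins descend from bacterial ribosomal proteins, and others were added in the mitochondrial lineage, mostly at the surface of the particle. The liver is rich in mitochondria, and the nuclear genes of the mitochondrial ribosome are regarded as housekeeping genes.

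Differences were tested between pools for a given probe set. Mean intensities of different probe sets do not share a scale, and their order is given as a description only. The tissue label was borne out by the hepatocyte markers albumin, transthyretin and others, whose summed intensity lay between 2940000 and 3083000 in both CT36 to CT41 and CT60 to CT65. Array medians ranged from 95.2 to 110.9. The last 6 pools stood apart. Their median correlation with the other arrays averaged 0.989, against 0.994 for CT36 to CT41, and the lowest single value was 0.984 at CT61. The 75th percentile of intensity was 797.1 to 944.8 in CT60 to CT65 and 937.9 to 1028.9 in CT36 to CT41, a log2 shift of -0.23. The main counts, and the calls of members that were lost or gained without these pools, are given beside the results.

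All 76 members had a mean intensity of 100 or more, and the lowest mean lay above that of 71.3% of genes. The probe sets of highest mean had 70145 for Mrpl39, a large-subunit protein without a bacterial counterpart, 42079 for Mrpl51 and 41087 for Mrpl24. The lowest means were 1961 for Mrpl54, 2231 for Mrps27 and 2310 for Mrpl45. Over the 48 pools the ratio of the 95th to the 5th percentile of a member was between 1.26 and 2.11, so that no member changed by a large factor.

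The first question was whether the members followed the time of day. Called by both Fisher's G-test and a cosine fit at a q-value under 0.05, 19 of 76 members (25%) had a period near 24 h. Of all genes 14.2% were called, and of the 11186 genes with a mean of 100 or more 22.3%. The median intensity of this set was 1666, against 9670 for the members, so it is brighter than all genes but not matched to the members. Both tests called 14 members without CT60 to CT65. No share of genes is given for that setting, so the fall from 19 is not read as a trait of the members. A model fitted in limma to trend and harmonics (cosine and sine pairs of 24, 12 and 8 h) gave another count, in which 43 members (56.6%) had a 24 h component at an adjusted p under 0.05, beside 52.7% of all genes and 56.4% of those with a mean of 100 or more. With the last 6 pools left out the counts were 45 members, 5311 of all 18194 genes and 5087 of the 11186. The fitted change from trough to peak was small. It was below 1.5-fold in all 76 members and ran from 1.19 to 1.49-fold in the 19 called by both tests. In pooled tissue, fewer cells of a type and less RNA per cell cannot be told apart.

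Mrps21, a small-subunit protein of bacterial type, had the smallest G-test p of all members. Its intensity was 10430 at the lowest, in CT53, 13102 at the median and 19072 at the highest, in CT62. The values were high in both subjective nights and again from CT60 on, and low in both subjective days. The 24 h component had an amplitude of 0.25 ± 0.03 (log2, mean to peak, ± SE, n = 48 pools), a peak at CT16.5 ± 0.43 h and an adjusted p of 2.12e-09 in limma. Without CT60 to CT65 the amplitude was 0.19 and the peak CT16.7.

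Mrpl36, a very small bacterial-type protein of the large subunit, came next in order of p. It ranged from 3730 in CT33 through a median of 5124 to 6353 in CT46. It was low around the end of each subjective day, and the values rose through the night. The amplitude was 0.22 ± 0.03, the peak CT20.9 ± 0.47 h and the adjusted p in limma 1.39e-07, and leaving out the last 6 pools moved the peak to CT20.8 and the amplitude to 0.22.

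Mrpl34, another bacterial-type large-subunit protein, had the largest 24 h amplitude of the 76, 0.29 ± 0.04 with a peak at CT18.7 ± 0.54 h. Its lowest value was 3384 in CT33, its median 5252 and its highest 8117 in CT22. Both nights were higher than the days, but the second cycle was lower than the first by 0.23 ± 0.06 on the log2 scale (limma, adjusted p = 0.00260). That fall did not hold under another scaling, with -0.12 and an adjusted p of 0.0537 after subtraction of each array's 75th percentile.

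Mrpl44, a large-subunit protein of mitochondria related to RNase III, ran against most of the others. It was 14668 at its highest in CT26, 10802 at the median and 7776 at its lowest in CT61. Peaks stood shortly after each subjective dawn. The fitted peak was CT1.93 ± 0.52 h with an amplitude of 0.18 ± 0.03 and an adjusted p of 1.52e-06 in limma. The 3 further probe sets of the gene gave fitted peaks at CT2.53, CT23.2 and CT1.18, each with an adjusted p under 0.05, and one of them was also called by both tests.

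**Figure D1:**
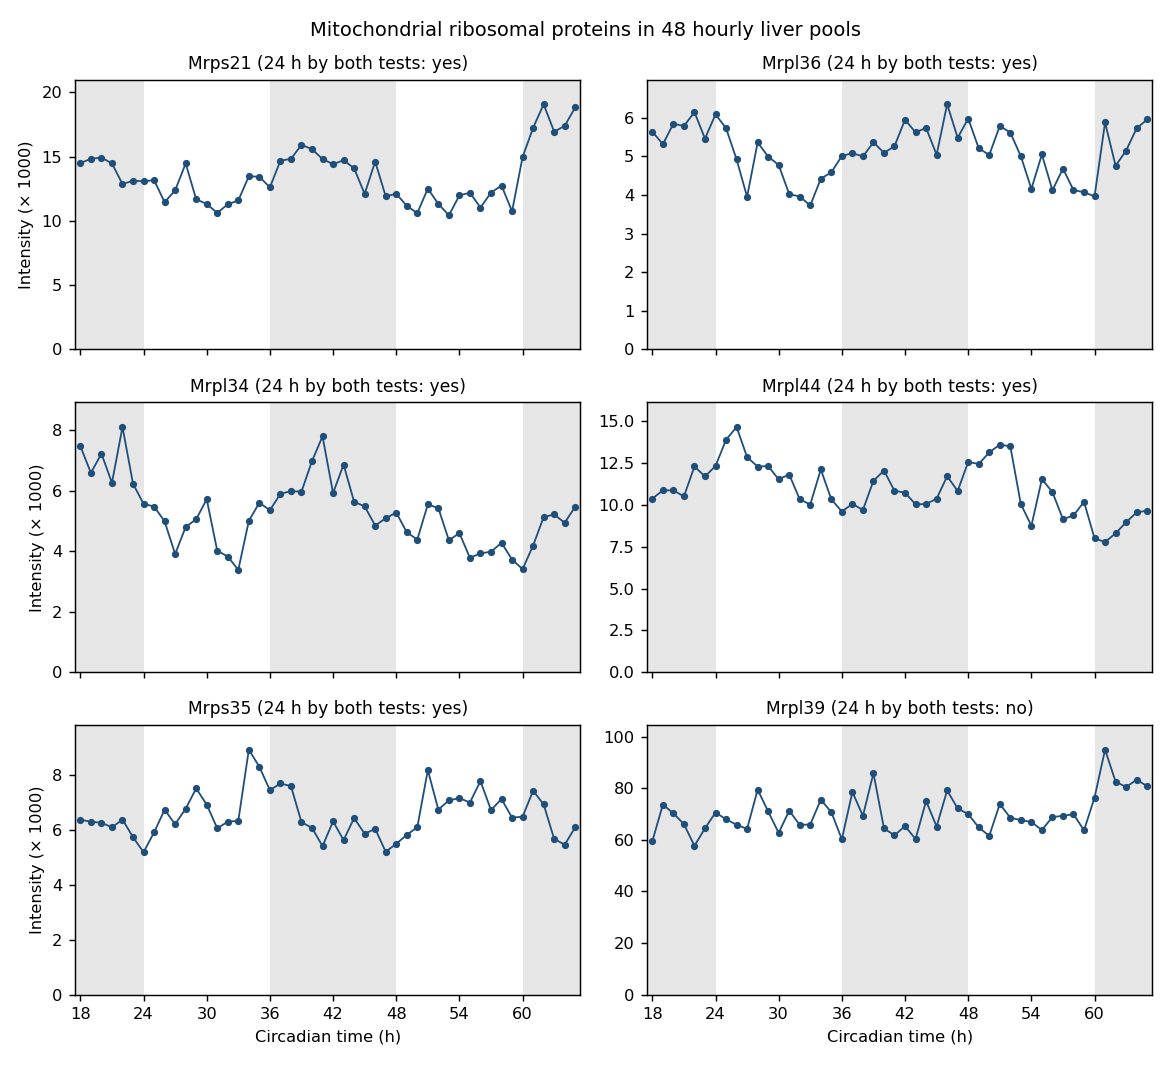
Intensity (in units of 1000, linear scale from 0) of 6 members in the 48 hourly pools, 1 point per pool; grey bands mark subjective night. Mrps21, Mrpl36 and Mrpl34 are higher in the nights, Mrpl44 peaks after dawn (fitted peak CT1.93), Mrps35 late in the day (CT9.3), and Mrpl39, the member of highest mean, has no 24 h call.

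The other members with the 10 smallest G-test p-values peaked between late day and night. Mrps6, a bacterial-type protein of the small subunit, peaked at CT19.3, Mrpl15 at CT17.8 and Mrpl24, which lies near the exit of the peptide tunnel, at CT16.2. Mrpl48 peaked at CT14.5. Mrpl12, which forms the flexible stalk of the large subunit and also binds the mitochondrial RNA polymerase, peaked at CT12.4 ± 0.56 h with an amplitude of 0.13 ± 0.02. It lay between 21236 and 33693 with a median of 24422, the highest value being at CT61. Mrpl10, the protein at the base of the same stalk, had no 24 h component (adjusted p = 0.386) and lay between 3627 and 7227 with a median of 5929. Mrps9 peaked earlier, at CT10.0.

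All 19 members called by both tests were also called in limma, and all 19 remained so without CT60 to CT65 and with any single pool left out. Over the 43 members with a 24 h component, 35 were called without CT60 to CT65. The peaks of the called members moved by a median of 0.572 h and at most 2.31 h. The calls lost without these pools were those of Mrpl13, Mrpl27, Mrpl40, Mrps5, Mrps11, Mrps16, Mrps18c and Mrps28, and 10 members gained a call, among them Mrpl38, Mrps12 and Mrps34. Mrps11 and Mrpl40 were also lost in some of the fits that left out a single pool.

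The peaks gathered in the subjective night. Of the 43 members, 32 (74.4%) peaked between CT12 and CT24, and 61.3% of all called genes but 41.8% of called genes with a mean of 100 or more did. The circular mean was CT16.2 for members, CT16.2 for all called genes and CT7.14 for those with a mean of 100 or more, whose peaks were widely spread. In the window from CT16 to CT20 lay 18 members (41.9%), beside 43.6% of all and 19.5% of the brighter called genes. From CT4 to CT8 lay 3 members (6.98%), beside 19.3% and 29% of genes. When CT60 to CT65 were left out, 31 of 45 called members peaked from CT12 to CT24, and their circular mean was CT15.3. From CT12 to CT24 peaked 20 of 27 called members of the large subunit and 11 of 15 of the small subunit. The 11 others peaked before CT12. They included Mrpl9 (CT4.42), Mrps5 (CT6.01), Mrps30 (CT7.70), Mrps26 (CT8.77), Mrps35 (CT9.30) and Mrpl2 (CT9.96).

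**Figure D2:**
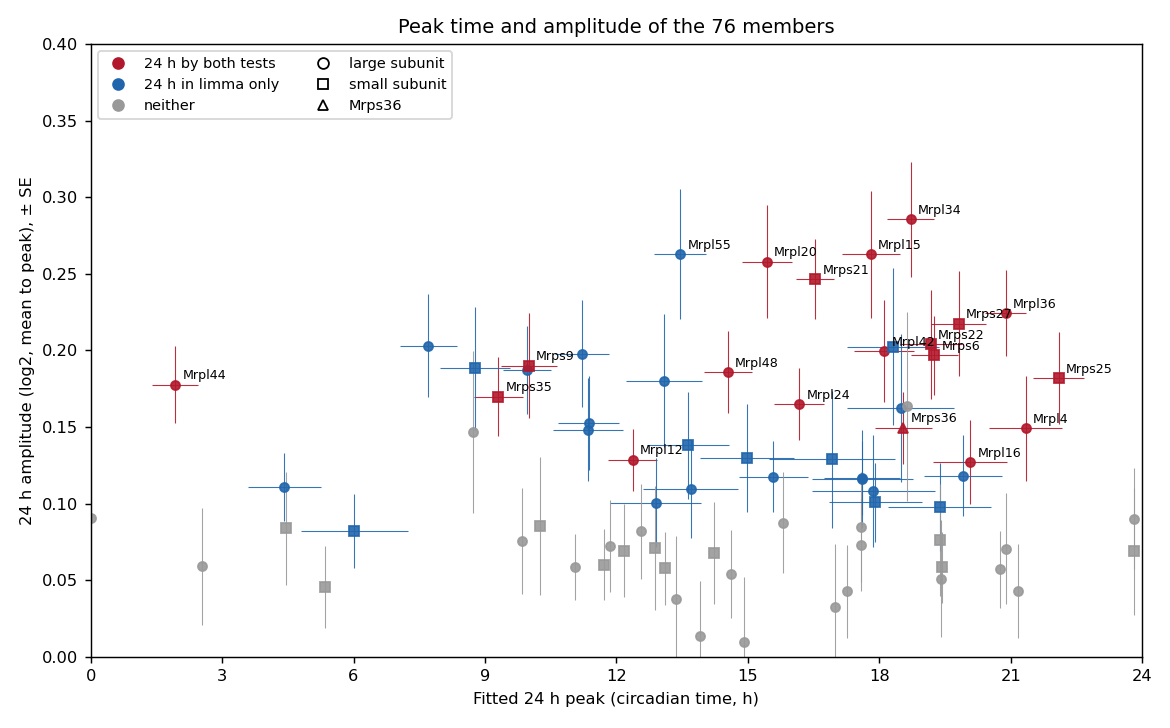
Fitted 24 h peak (circadian time, h) against 24 h amplitude (log2, mean to peak) of the 76 members, with SE bars (peak SE not drawn for members without a 24 h call); colour gives the call and marker shape the subunit. Most called members sit between CT12 and CT24 with amplitudes under 0.3, and Mrpl44 stands alone near CT2.

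**Figure D3:**
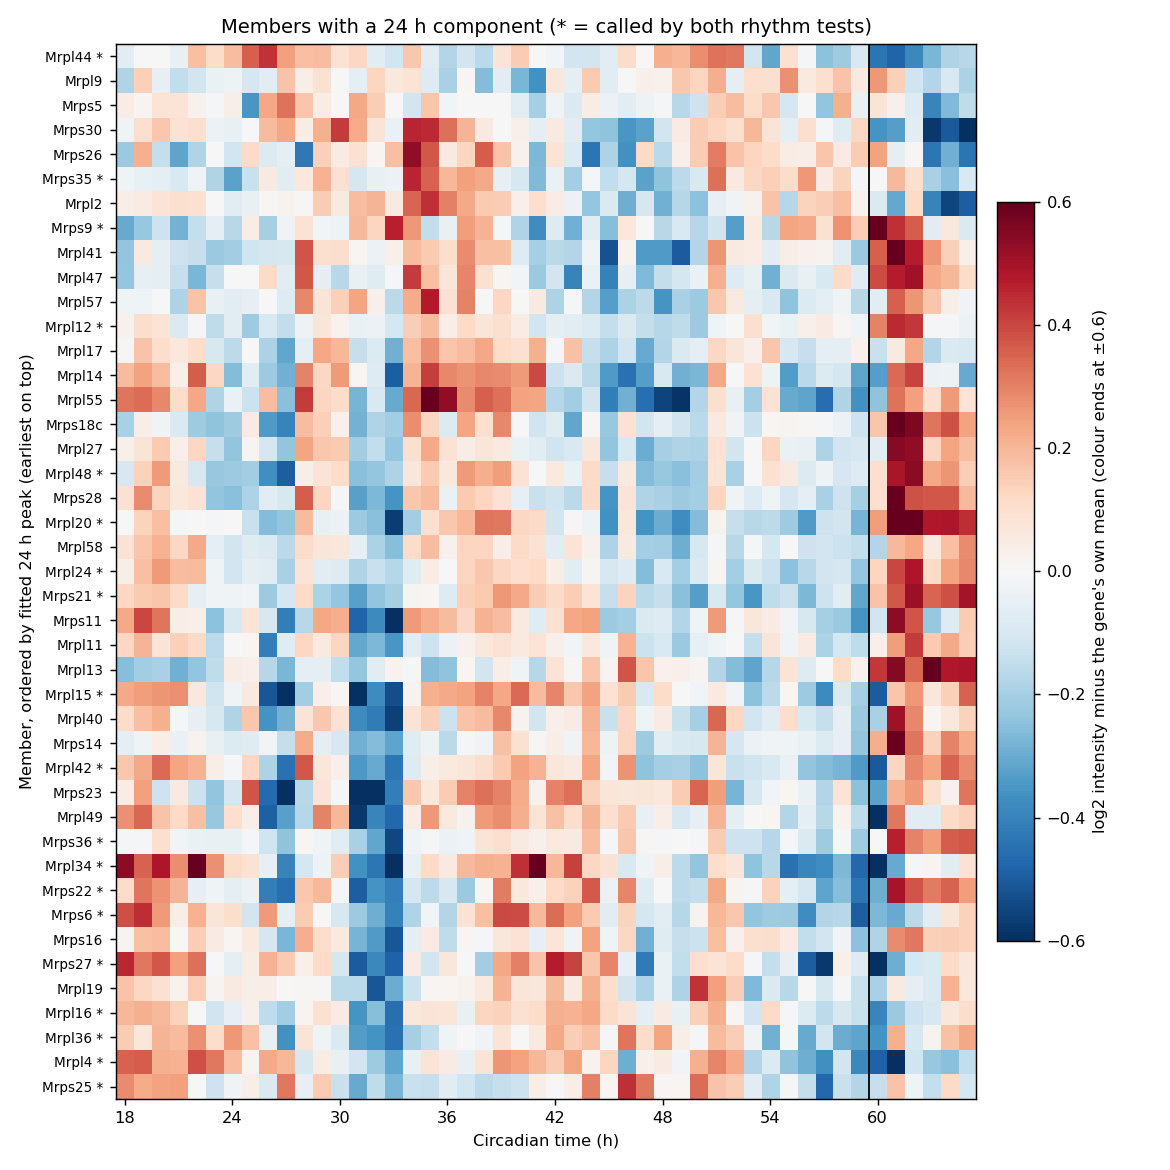
Log2 intensity minus the gene's own mean, by pool (columns, CT18 to CT65), for the 43 members with a 24 h component in limma, ordered by fitted peak; asterisks mark the 19 called by both tests and the vertical line divides CT59 from CT60. Pools CT31 to CT33 are low in most night-peaking members, and the last 6 pools hold strong deviations in both directions.

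Large amplitudes were also found in Mrpl15 (0.26 ± 0.04), Mrpl55 (0.26 ± 0.04) and Mrpl20 (0.26 ± 0.04). Mrpl55 peaked at CT13.5 and had an adjusted p of 2.12e-05 in limma, but its G-test q was 0.136, so that both tests together did not call it. It lay between 1942 in CT49 and 4722 in CT35, with a median of 2962. The smallest amplitudes were those of Mrpl38 (0.01 ± 0.04), Mrpl32 (0.01 ± 0.04) and Mrpl1 (0.03 ± 0.04). That of Mrpl38 rested on the last 6 pools, without which it was 0.13 with a peak at CT15.7 and an adjusted p of 0.00236, whereas Mrpl32 and Mrpl1 stayed at 0.04 and 0.03.

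Other members of interest for their place in the ribosome showed varied timing. Mrps12, which reaches into the decoding centre, lay between 7454 and 13957 with a median of 10960, with an adjusted p of 0.190 for the 24 h component in limma. Its call depended on the setting, with an adjusted p of 0.0247 without CT60 to CT65 and 0.00268 with each array's 75th percentile subtracted. The mammalian mitochondrion has 3 proteins related to bacterial S18. Mrps18c lay between 17873 and 36528 and had a 24 h component with a peak at CT13.6 (adjusted p = 0.00715), whereas Mrps18a (3463 to 5783) and Mrps18b (5834 to 13723) had adjusted p-values of 0.705 and 0.141. None of the 3 was called in limma without CT60 to CT65, with adjusted p-values of 0.0940 for Mrps18c, 0.101 for Mrps18a and 0.604 for Mrps18b. Mrps30, a mitochondria-specific protein of the large subunit, lay between 1877 in CT65 and 4623 in CT34 and peaked at CT7.70 ± 0.65 h. Mrps36, the member outside the ribosome, was called by both tests with a peak at CT18.6 ± 0.64 h and lay between 2595 and 5231.

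Few members were called at 12 h or 8 h, near the shares of all genes. Neither class held a member by both tests, and these classes held 1.13% and 0.39% of all genes. In limma, 5 members had a 12 h component (7.13% of genes), namely Mrps6, Mrpl20, Mrpl47, Mrpl55 and Mrps27, and 2 had an 8 h component (2.13% of genes), Mrpl48 and Mrpl46. Of the 11186 genes with a mean of 100 or more, limma called 1295 at 12 h and 383 at 8 h. At an unadjusted p under 0.05 the numbers were 32 and 37 of 76 (42.1% and 48.7%), beside 18.4% and 17.7% of all genes and 29% and 26.4% of genes with a mean of 100 or more. The 12 h component of Mrps6 had an amplitude of 0.14 ± 0.03 with peaks at CT4.22 and 12 h later, and an adjusted p of 0.00101. Of these 5, Mrps6 and Mrpl20 kept a 12 h component without CT60 to CT65, and Mrps2, Mrpl44 and Mrps18b gained one. The call of the 8 h component of Mrpl46 was present in 17 of the 48 fits with a pool left out, that of Mrpl48 in all 48. Mrpl48 nevertheless lost it without CT60 to CT65 (adjusted p = 0.0656), with quantile normalization (0.0543) and with the 75th percentile subtracted (0.0941), and the 1 member called without the last 6 pools was Mrps27 (0.0478). The fitted 12 h peak fell from 2 to 5 h in 54 members (71.1%), called or not, beside 27.3% of all genes. The 8 h peak fell from 3 to 6 h in 60 members (78.9%), beside 43.6% of genes with a mean of 100 or more. Members share the 48 arrays, so these counts are not of independent observations.

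Another 8 of the 76 members were called by both tests with periods outside these classes. So were 214 of all 18194 genes and 209 of the 11186 genes with a mean of 100 or more. The members were Mrpl41 at the limit of 30 h and Mrps7, Mrpl43, Mrpl38, Mrpl10, Mrpl37, Mrps34 and Mrpl13 between 15.3 and 19.3 h. Of these 8, 6 were lower and Mrpl13 was higher in the last 6 pools, as described further on.

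Members moved together weakly from pool to pool. The median Pearson correlation over 2850 pairs of members was 0.24 over the 48 pools and 0.27 without CT60 to CT65. Over the 48 pools 68.5% of the pairs had a positive correlation. The median with non-member genes of a mean of 100 or more was 0.00943 and 0.0213. The pools share animals, arrays and normalization for all genes, and no test was made. Pairs within the large subunit had a median of 0.24, pairs within the small subunit 0.16 and pairs across subunits 0.24. In the mean over members the lowest pool was CT33, 0.23 below average on the log2 scale, when 10 of 76 members stood above their own mean. The highest were CT61 with 0.16 and CT62 and CT51 with 0.15, and in CT51 67 members were above their own mean. In CT33 the mean of all genes with a mean of 100 or more deviated by -0.00387, and in CT61 by -0.17. The mean profile had a 24 h amplitude of 0.06 with a peak at CT16.1, a 12 h amplitude of 0.05 and an 8 h amplitude of 0.05.

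The genes outside the family whose profile was most like this mean were Elp5, Pigbos1, Pole4, Ost4, Sdhaf3, Brcc3, Grcc10, Mcee, Cox19 and 1110065P20Rik. Their Pearson correlations over the 48 pools ran from 0.870 for Elp5, a subunit of Elongator, to 0.819. Without CT60 to CT65 the same 10 genes had correlations of 0.814 to 0.908, the highest being that of Pigbos1.

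The sequence before the gene start was examined for letters known to be bound by regulators of mitochondrial genes or of the clock. RefSeq windows of GRCm38.p6, from 250 bases before to 50 after the start, were matched for 67 of the 76 members. The core of ETS factors such as GABP (CCGGAAG), on either strand, was found in 25 of these (37.3%), beside 9.93% of all 27025 genes with a window and 19.4% of array genes with a mean of 100 or more. The YY1 core (AAGATGG) was found in 13 (19.4%, beside 7.28% and 8.47%) and the NRF1 core (GCGCATG) in 8 (11.9%, beside 4.41% and 7.62%). Letters bound by clock factors were searched as well. The E-box CACGTG occurred in 5 members (7.46%, beside 8.09% and 11.9%), the ROR element core AGGTCA in 10 (14.9%, beside 18.1% and 15.7%) and the D-box TTANGTAA in none, beside 2.72% of all windows. A match is a description and not a binding site.

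The 100 bases before the start are shown for 4 members of the 24 h class with small p-values, the first 3 of the night and the last of the morning, in the direction of transcription and with matches in capitals. In Mrps21 (chr3:95871515-95871614, minus strand) the match is to the ROR core, and in Mrpl34 (chr8:71464826-71464925, plus strand) to the ETS core. In Mrpl36 (chr13:73330909-73331008, plus strand) an E-box overlaps an ROR core on the opposite strand and is followed by a YY1 core on the opposite strand. Mrpl44 (chr1:79775918-79776017, plus strand) has no match in this stretch.
Mrps21: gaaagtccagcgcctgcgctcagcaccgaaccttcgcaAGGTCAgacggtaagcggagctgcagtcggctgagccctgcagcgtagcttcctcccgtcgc
Mrpl36: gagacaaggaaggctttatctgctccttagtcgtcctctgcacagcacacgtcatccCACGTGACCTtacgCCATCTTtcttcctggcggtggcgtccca
Mrpl34: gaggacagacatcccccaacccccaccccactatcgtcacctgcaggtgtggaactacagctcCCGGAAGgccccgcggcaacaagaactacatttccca
Mrpl44: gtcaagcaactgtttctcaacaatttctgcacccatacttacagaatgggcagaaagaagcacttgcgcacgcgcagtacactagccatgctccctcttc

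Many members start beside a gene of the other strand. Of the 67, 23 (34.3%) had the start of a divergent gene within 1000 bases, beside 8.48% of protein-coding genes and 13.2% of array genes with a mean of 100 or more. The 24 h class held 1 of these among 16 members with a window, Mrps27, whose partner is Ptcd2, and the other members 22 of 51. The closest members to each other were Mrpl46 and Mrps11, 1 of each subunit, whose starts lie 42 bases apart on chromosome 7. Their profiles had a correlation of 0.69 over the 48 pools, and the fitted 24 h peaks were CT17.3 and CT16.9, though only that of Mrps11 passed the threshold (adjusted p = 0.0471 against 0.453). With CT60 to CT65 left out the correlation was 0.68 and neither was called (0.115 and 0.906). The 41 bases between them (chr7:78783090-78783130, shown in the direction of Mrps11) hold none of the 6 motifs.
Mrpl46 and Mrps11: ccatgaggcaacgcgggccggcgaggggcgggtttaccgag

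Correlations with other divergent partners ran from 0.82 for Mrpl32 and Psma2, a proteasome subunit, to -0.45 for Mrpl41 and Pnpla7. Mrpl43 and Twnk, the mitochondrial DNA helicase, had 0.60, Mrpl2 and Klc4 0.60, and Mrps12 and Sars2, a mitochondrial tRNA synthetase, -0.18. The same pairs without CT60 to CT65 had 0.70 for Mrpl32, -0.04 for Mrpl41, 0.50 for Mrpl43, 0.53 for Mrpl2 and -0.19 for Mrps12.

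The second question was whether levels differed between the cycles, with the hour as a block in limma. In the second cycle 21 members were lower (27.6%) and 6 higher (7.89%). Of all genes 16.2% were lower and 38% higher, and of genes with a mean of 100 or more 26.1% and 17.7%. The falls were led by Mrps34 (-0.38 ± 0.07, adjusted p = 0.000285), Mrpl38 (-0.34 ± 0.07, adjusted p = 0.000440) and Mrpl55 (-0.32 ± 0.06, adjusted p = 0.000315), and the rises by Mrpl52 (0.27 ± 0.06), Mrpl32 (0.26 ± 0.05) and Mrpl13 (0.25 ± 0.05). Further probe sets of Mrpl52 with a mean of 100 or more had differences of 0.03 and -0.04, neither past the threshold. Those of Mrpl13 had 0.03, not past it, and 0.18 (limma adjusted p = 0.00140). Those of Mrpl38, with means of 146 and 107, had -0.01 and 0.08, neither past it. The split between lower and higher depended on the scaling. With each array's 75th percentile subtracted 8 members were lower and 32 higher, the median of all genes then lying at 0.13. With quantile normalization the numbers were 12 and 12, with a median of 0.00525 over all genes and 0.0429 over members. No share of genes is given for either scaling. The 6 members called higher stayed so with quantile normalization. They also stayed so with the 75th percentile subtracted, but that step took -0.10 out of every difference alike, so their sign could not change. Of the 21 lower, 8 stayed so with the 75th percentile subtracted and 12 with quantile normalization, Mrps34, Mrpl38 and Mrpl55 being among the former. Of the 21 lower members 15, and of the 6 higher members 5, were called in the same direction in the last 6 pools. Without those pools and their hour partners 13 members were lower and 5 higher.

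The last 6 pools were set against the same hours of the first cycle. In CT60 to CT65, 22 members were higher (28.9%) and 18 lower (23.7%) than in CT36 to CT41. Of all genes 32.8% were higher and 15.8% lower, and of genes with a mean of 100 or more 15.8% and 25.6%. Both subunits took part in both directions, with 13 large-subunit and 8 small-subunit members higher, beside Mrps36, and 12 and 6 lower.

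Mrpl38, a mitochondria-specific protein of the large subunit, had 8814 to 9789 in CT36 to CT41 and 4495 to 5537 in CT60 to CT65. The ranges did not overlap, and the difference was -0.84 ± 0.05 (log2, ± SE, 6 against 6 pools, limma adjusted p = 6.44e-05). Mrpl37, also mitochondria-specific, had 3038 to 3534 and then 1458 to 2529, again without overlap, a difference of -0.84 ± 0.11 (adjusted p = 0.00135). Mrps34, of the small subunit, went from 17427 to 20661 down to 9518 to 13877, a difference of -0.74 ± 0.08 (adjusted p = 0.000585). Mrps18b (-0.56 ± 0.10), Mrps30 (-0.54 ± 0.12), Mrpl10 (-0.52 ± 0.08), Mrps18a (-0.43 ± 0.05) and Mrps12 (-0.43 ± 0.07) were lower too.

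In the other direction Mrpl52 went from 17696 to 22657 in CT36 to CT41 up to 27029 to 38041 in CT60 to CT65, a difference of 0.67 ± 0.08 without overlap (adjusted p = 0.00114). Further bright probe sets of this gene had differences of 0.09 and -0.03, neither past the threshold, so the rise rests on the probe set of highest mean. Mrpl13, a bacterial-type large-subunit protein, went from 17934 to 21819 up to 26947 to 32640 (0.57 ± 0.06, adjusted p = 0.000510), and its further bright probe sets had 0.16 and 0.45, both past the threshold. Mrpl32 went from 8871 to 11166 up to 12091 to 18576 (0.49 ± 0.11, adjusted p = 0.00944).

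The ranges of the 12 pools did not overlap in 13 of the 18 lower and 7 of the 22 higher members. These are 17.1% and 9.21% of the 76. Ranges lay wholly lower in 5.83% of all genes and 9.46% of genes with a mean of 100 or more, and wholly higher in 14.8% and 7.34%. These 40 genes had 25 further probe sets with a mean of 100 or more. Of these, 19 had the same sign as the brightest, and 15 of them were past the threshold too. With the 75th percentile of each array subtracted, 39 members were higher and 9 lower. This step took the array shift of -0.23 out of every difference alike. The median difference was then 0.27 over all genes and 0.28 over members. All 22 higher members were called higher then as well, but under this shift they could not change sign. Of the 18 lower members 9 were called lower, and Mrpl17 and Mrps17 turned sign without a call. With quantile normalization 26 members were higher and 10 lower, and the median difference was 0.00197 over all genes and 0.18 over members. No share of genes is given for either scaling, so these counts are not read as a trait of the members. Mrpl38, Mrpl37, Mrps34, Mrps2, Mrps18b, Mrpl10, Mrpl43 and Mrps18a were lower under all 3 scalings. Endothelial markers had a median difference of -0.52, with 4 of 6 lower and 1 higher and a summed intensity of 25640 to 28720 against 26640 to 29550, and their part in the result was not tested. In each of the other marker lists, from hepatocytes to bile duct, at most 2 genes were called in a direction. These lists were short, with 2 to 6 genes. Higher were 2 of 3 neutrophil genes, and of 5 stellate and pericyte genes 2 were lower and 1 higher. Their part was not tested either.

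**Figure D4:**
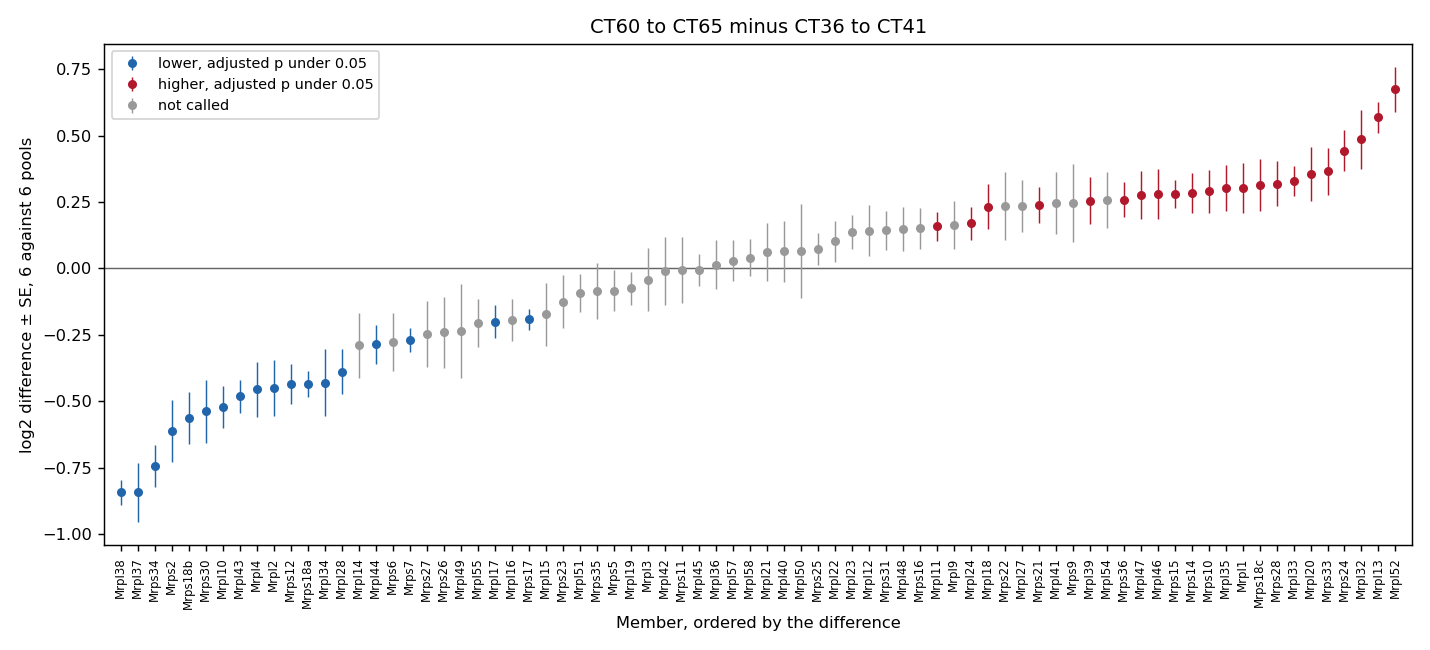
Difference in log2 intensity between CT60 to CT65 and CT36 to CT41 (± SE, 6 against 6 pools) for each of the 76 members, ordered by the difference; blue and red mark adjusted p under 0.05 in limma. The differences run from -0.84 in Mrpl38 to 0.67 in Mrpl52.

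The members that fell and those that rose did not run in opposite directions in the other pools. Over all 48 pools the median correlation was 0.56 among the 18 lower members, 0.63 among the 22 higher and -0.34 between the groups. The groups were chosen on CT60 to CT65 and CT36 to CT41, and in the 36 remaining pools, a choice made after the values were seen, it was 0.46, 0.36 and 0.06.

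**Figure D5:**
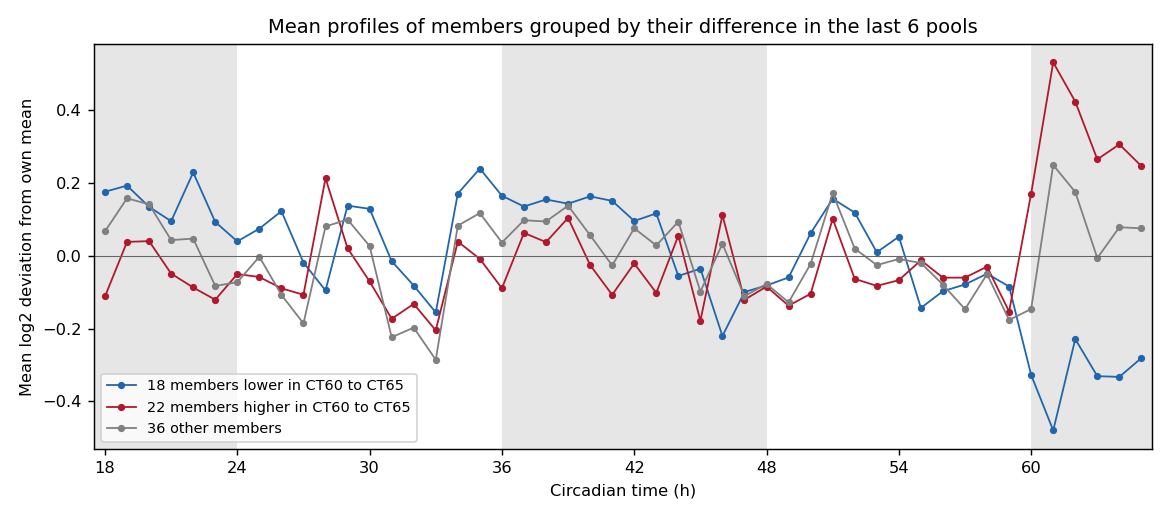
Mean log2 deviation from the gene's own mean, by pool, over the 18 members lower in CT60 to CT65, the 22 higher and the 36 others; grey bands mark subjective night, and CT60 to CT65 and CT36 to CT41 are the pools that chose the groups. The lower and the higher group stand furthest apart in CT61, at -0.48 and 0.53.

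The 24 h component itself differed between the cycles for 16 members (21.1%) by an interaction of cycle and 24 h pair in limma, beside 6.04% of all genes and 9.7% of genes with a mean of 100 or more. Without CT60 to CT65 no member was called by limma, with 7 members at an unadjusted p under 0.05, and of all genes 2 were called. Mrpl13, with the smallest p, had fitted amplitudes of 0.04 (first cycle) and 0.28 (second cycle), with an adjusted p of 0.000817 from all pools and 0.705 without the last 6. Mrpl4 and Mrpl20 were the members of the 24 h class among the 16.

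Further probe sets gave a check on the calls. Of 80 such probe sets in 42 genes, 49 had a mean of 100 or more, and their median correlation with the brightest probe set of the gene was 0.49. Members with a 24 h component had 32 further probe sets with a mean of 100 or more. Of these, 22 had a 24 h component as well, with a median difference in peak of 0.838 h, 15 of them within 2 h. Among all genes with a mean of 100 or more 56.4% had a 24 h component, so many such calls arise without a shared gene. In 12 genes the probe sets differed in the 24 h call by both tests. For Mrpl42 and Mrps21 the uncalled probe set had a mean of 47.2 and 165. That of Mrps21 nevertheless had a 24 h component in limma (adjusted p = 0.00160), with an amplitude of 0.29 and a peak at CT10.5. Its correlation with the brightest probe set was -0.12. In Mrps24 the brightest probe set was not called, with an amplitude of 0.07, and the other one, of mean 12682, was called with 0.18 and a peak at CT15.8. In Mrpl41 the probe set of mean 6254 was called at 24 h with a peak at CT12.8, while the brightest had a fitted period of 30 h. In Mrpl15, 4 of 7 further probe sets were called at 24 h as well. Of these, 3 peaked between CT16.5 and CT17.2 like the brightest one, and the other at CT6.46 with a correlation of -0.37.

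Genes that work with the mitochondrial ribosome were read beside it. Of 4 mitoribosomal proteins with other names, 2 were called at 24 h by both tests, Ptcd3 (peak CT18.1) and Chchd1 (CT16.8), and Dap3 had a 24 h component in limma with a peak at CT8.02. Of 11 mitochondrial translation factors 1 was called by both tests, Mtif2 with a peak at CT6.21, and 6 had a 24 h component in limma. Of 21 assembly and rRNA modification factors 4 were called and 14 had a component, Rbfa peaking at CT8.80 and Mterf4 at CT3.74. Of 16 mitochondrial aminoacyl-tRNA synthetases 3 were called and 9 had a component, led by Nars2 (CT3.80), Lars2 (CT2.57) and Hars2 (CT4.92). Of 9 genes of mitochondrial transcription and DNA maintenance 3 were called, Polg (CT6.93), Polg2 (CT10.6) and Tfam (CT8.80). The circular mean peaks of these lists in limma were CT2.03 for translation factors, CT4.36 for assembly factors, CT2.41 for synthetases and CT7.73 for transcription, beside CT16.2 for the called members and CT7.14 for called genes with a mean of 100 or more. The resultant length, which is larger where peaks gather, was 0.62, 0.33, 0.60 and 0.29 for these lists in that order. It was 0.49 for the called members and 0.14 for the brighter called genes. Means of widely spread peaks give no common time.

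Of 10 nuclear regulators of mitochondrial genes 2 were called at 24 h. Ppargc1b, a coactivator, had an amplitude of 1.01 with a peak at CT7.99, and Yy1 one of 0.32 with a peak at CT7.07. Of 75 subunits of the respiratory chain and ATP synthase 8 were called by both tests and 41 had a 24 h component in limma with a circular mean at CT17.6. Of 42 cytosolic ribosomal proteins none was called by both tests, while 23 had a component in limma with a circular mean at CT18.6 and a median amplitude over the list of 0.06, beside 0.11 for the mitochondrial ones. The resultant length was 0.70 for the respiratory chain and 0.70 for cytosolic ribosomal proteins, beside 0.49 for the called members. A gathering of peaks in the night was thus not particular to the members. For comparison, 10 of 11 core clock genes were called, with a median amplitude of 1.42. The limma counts without CT60 to CT65 were 25 of 75 for the respiratory chain, 13 of 42 for cytosolic ribosomal proteins, 5 of 16 for the synthetases and 11 of 11 for the clock.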

How the data were processed

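Liver RNA was measured in 48 hourly pools on 1 array each. The table as deposited holds linear intensities. According to the paper, expression values were extracted with GCRMA, which corrects background and normalizes between arrays, and MAS5 served for the present and absent calls. The labels name MAS5. Which method made the table was not tested. The number of arrays and the signal over background limit precision.

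Values were taken to log2, all 45101 probe sets entered every fit and members were read from it afterwards. Fisher's G-test used 23 Fourier frequencies, and the cosine fit, run on detrended values, covered 4 to 30 h in steps of 0.1 h with 1000 scramblings and Storey q-values under 0.05 in both. Classes were 20 to 30, 10 to 14 and 7 to 9 h. Harmonic components, cycles, the last 6 pools and the interaction were tested in limma 3.58.1 (R 4.3.3) with Benjamini-Hochberg adjustment over all probe sets. Further work used Python 3.11.15, numpy 2.4.6, pandas 2.3.3, scipy 1.17.1 and matplotlib 3.10.9. The steps were tested on simulated data. Other normalizations, detrending, filters, probe sets, cycles alone and left-out pools were tried.

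Symbols came from the platform annotation, and all 76 matched RefSeq. Members and lists were chosen with earlier results of these data known. Genes were named by a rule: the 10 smallest G-test p-values at 24 h, the largest and smallest amplitudes, means and changes between cycles, probe sets that disagreed, 8 genes for their roles, the 3 leading genes of other lists and the 10 most similar genes. Probe sets with several symbols were left out.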

Additional observations from a re-analysis of the deposited data

Results flagged for a closer look

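In 16 members the 24 h component differed between the cycles when all 48 pools were used, by the interaction of cycle and 24 h pair in limma. The adjusted p was 0.000817 for Mrpl13, 0.00269 for Mrpl10, 0.00291 for Mrpl38, 0.00357 for Mrpl52, 0.00637 for Mrpl43 and 0.00716 for Mrpl37. It was 0.0174 for Mrps2, 0.0272 for Mrps18b, 0.0286 for Mrps10, 0.0311 for Mrps18a, 0.0324 for Mrps15 and 0.0343 for Mrps24. The others were Mrpl4 (0.0466), Mrpl33 (0.0473), Mrps33 (0.0474) and Mrpl20 (0.0495). Mrpl37 had amplitudes of 0.12 and 0.30 with peaks at CT15.1 and CT4.71, and Mrpl20 had 0.18 and 0.36 with peaks at CT16.9 and CT14.6. Without CT60 to CT65 the adjusted p of the 16 was between 0.705 and 0.928.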

How the results depend on the processing

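The 24 h calls by both tests (19) came to 4 from the first cycle alone and 1 from the second, and 1 member was called at 12 h by both tests from the second cycle. At 8 h both tests called 2 members among probe sets with a mean of 100 or more and 2 without CT60 to CT65. In limma the 12 h count (5) was 3 without a trend and 4 to 8 with a pool left out, the highest without CT27. The 8 h count (2) was 0 with quantile normalization, 0 with the 75th percentile subtracted, 1 without CT60 to CT65, 5 among brighter probe sets and 1 to 8 with a pool left out. Members higher in the second cycle (6) were 12, 32 and 10 with quantile normalization, the 75th percentile subtracted and harmonic pairs in place of the hour, and 5 to 10 with an hour left out, the highest without CT21. Those lower (21) were 12 and 8 under the scalings and 13 without the last 6 pools and their partners. In CT60 to CT65, 39 were higher with the 75th percentile subtracted, and 10 and 9 lower under quantile and 75th percentile scaling. The interaction (16) was 0 without CT60 to CT65. Other alternatives left these counts within 1.5 times, and the causes were not tested. With the 6 hours as a block, 25 members were higher and 19 lower in CT60 to CT65. One pool per hour limits every estimate.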
